A study of Mus musculus with 6 samples.

Results

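Cell cycle and DNA replication genes were examined by RNA-seq of whole tibialis anterior (TA) muscle from iMSBmal1 mice, in which Bmal1, which encodes a transcription factor at the heart of the circadian clock, was deleted in muscle. The 38 genes come from a list of symbols drawn up by function, with no threshold on their values but with earlier results of these data known, and all 38 were found among the 55401 gene identifiers of the count table. All 6 muscles came from C57BL/6 mice with the genotype HSA-MCM-Bmal1-/-, kept to 12 to 16 weeks of age under a light-dark cycle and given tamoxifen, 2 mg daily over 5 days. The muscle received adeno-associated virus (AAV) 4 weeks later, by injection throughout the TA, with a vector for GFP (AAV-GFP, n = 3) or for RBM20, a regulator of titin splicing (AAV-RBM20, n = 3), and was collected after another 4 weeks. The question was how the AAV-RBM20 muscle differed from the AAV-GFP muscle. The HSA promoter, which drives the tamoxifen-dependent Cre, acts in skeletal muscle fibres, so other cells of the tissue keep Bmal1. Per the methods of the study, mouse Rbm20 cDNA with an HA tag was delivered in a CMV vector, and more of this vector was injected than of the GFP vector, so dose and transgene cannot be told apart. No uninjected muscle or muscle with intact Bmal1 was part of the comparison. The labels do not say whether the 3 samples of a group came from separate mice, so p-values measure the spread between these samples only.

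A cell that divides copies its DNA once in S phase and separates the copies in mitosis. Origins of replication are licensed when CDC6 and CDT1 load the MCM helicase onto DNA, and E2F transcription factors switch on the genes for nucleotide synthesis and replication. Mitotic genes come on later, under FOXM1 and the MuvB complexes, and encode cyclins, kinases and spindle proteins. Muscle fibres are multinucleated and have left the cell cycle, so in adult muscle these transcripts are mostly studied in muscle stem cells, immune cells, fibro-adipogenic progenitors and endothelial cells. Several members also have roles outside division, such as PCNA in DNA repair, RRM1 in deoxynucleotide supply, and AURKA and TPX2 in microtubule control.

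Libraries held 41400132 to 54226618 counts each. Replicate 3 of both groups stood apart from the other libraries, with Ttn at 4.48% and 9.05% of counts against 16.9 to 17.8% elsewhere, and mitochondrially encoded genes at 12.5% and 11.4% against 6.41 to 7.66%. Rbm20 itself was at 164 to 170 CPM (counts scaled to a common library size) in AAV-GFP and 406 to 545 CPM in AAV-RBM20, a ratio of means of 2.91 that followed the labels in every library, in a count that does not separate vector from endogenous transcripts. Its adjusted p was 0.121 by edgeR's quasi-likelihood test (adjusted by Benjamini-Hochberg), and 0.0107 when the replicate number in the sample titles was added as a block. CPM are scaled by the trimmed mean of M values (TMM) throughout, and fold changes are AAV-RBM20 over AAV-GFP.

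The members were low in abundance in both groups. Mean levels over the 6 libraries ran from 0.0893 CPM for Ccnb1, a mitotic cyclin, to 34.2 CPM for Rrm1, and 23 of the 38 members were below 1 CPM. Per kilobase of merged exon, the highest mean levels were those of Pcna (4.92 CPM per kb), Rrm1 (3.11) and Aurka (2.34), and the lowest were those of Ccnb1 (0.0212) and Cenpf (0.0243). The summed level of all 38 members was 89.6, 90.0 and 110 CPM in AAV-GFP replicates 1, 2 and 3 and 87.0, 90.6 and 109 CPM in AAV-RBM20 replicates 1, 2 and 3, so the groups overlapped and the ratio of their means was 0.989. Rrm1 alone made up 35.6% of this sum over the libraries.

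Cenpf, Top2a, Mki67 and Rrm2 had the largest positive log2 fold changes of the 30 members tested, from 1.93 to 1.41, and Aurka had the largest negative one, -0.90. Without the low-count filter, the scarce members Ccnb1 and Bub1 reached 1.57 and 1.46. No member changed past the threshold of an adjusted p of 0.05 in the planned edgeR test, in which 0% of the 17222 genes tested passed. Among the 38 members, 30 had enough counts to be tested. The unadjusted p was under 0.05 for 5 members with a higher mean in AAV-RBM20 (Rrm2, Tyms, Cenpf, Mki67 and Top2a), beside 4.08% of all genes tested, and for 1 member with a lower mean (Aurka), beside 3.82%. The smallest adjusted p of a member was 0.618. With the replicate block, no member passed either, beside 0.145% of genes, Aurka then having the smallest adjusted p, 0.0959. Unadjusted p under 0.05 was then found for 6 members higher in AAV-RBM20, beside 8.92% of genes, and for 3 lower (Mcm2, Aurka and Tpx2), beside 9.92%. DESeq2 with the replicate block called 2 members, Aurka lower (adjusted p = 0.00976) and Mki67 higher (adjusted p = 0.0360), out of 21 members to which it gave an adjusted p, beside 3.28% of the 15329 genes with one.

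The median log2 fold change of the 30 tested members was 0.35, beside 0.0090 for all genes tested. Members were not spread evenly over the low-count filter, which required about 10 counts, or 0.225 CPM at the median depth, in 3 libraries. Cenpf met that minimum in 0 AAV-GFP and 3 AAV-RBM20 libraries, Cdc6, Uhrf1 and Cenpe in 1 and 3, and Foxm1 in 2 and 3, whereas E2f1 met it in 3 and 2. Cenpf could therefore pass only by being higher in AAV-RBM20, and the other 4 with fewer AAV-GFP libraries passed more readily for the same reason, so the count and median over tested members support nothing on their own. Without the filter, 26 of all 38 members had a positive log2 fold change, or 68.4%, beside 53.2% of the 29747 genes with a count, and the median was 0.42 beside 0.036. In that fit, no member passed the adjusted threshold. Leaving out AAV-RBM20 replicate 3 lowered the median of the tested members to 0.20, and leaving out AAV-GFP replicate 1 lowered it to 0.23.

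The tested members were also described by level, without a test. Of the 15 tested members with a mean under 1 CPM, 14 had a positive log2 fold change, with a median of 0.68, beside 66.2% of the 3951 genes at that level and a median of 0.21. Of the 15 members at 1 CPM or more, 6 were positive and 9 negative, with a median of -0.027, beside 46.8% positive among 13271 genes and a median of -0.021. The bin under 1 CPM holds the members that the filter favoured in AAV-RBM20 and leaves out the 8 that it removed, so these counts are a description and support no relation between level and direction.

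**Figure D1:**
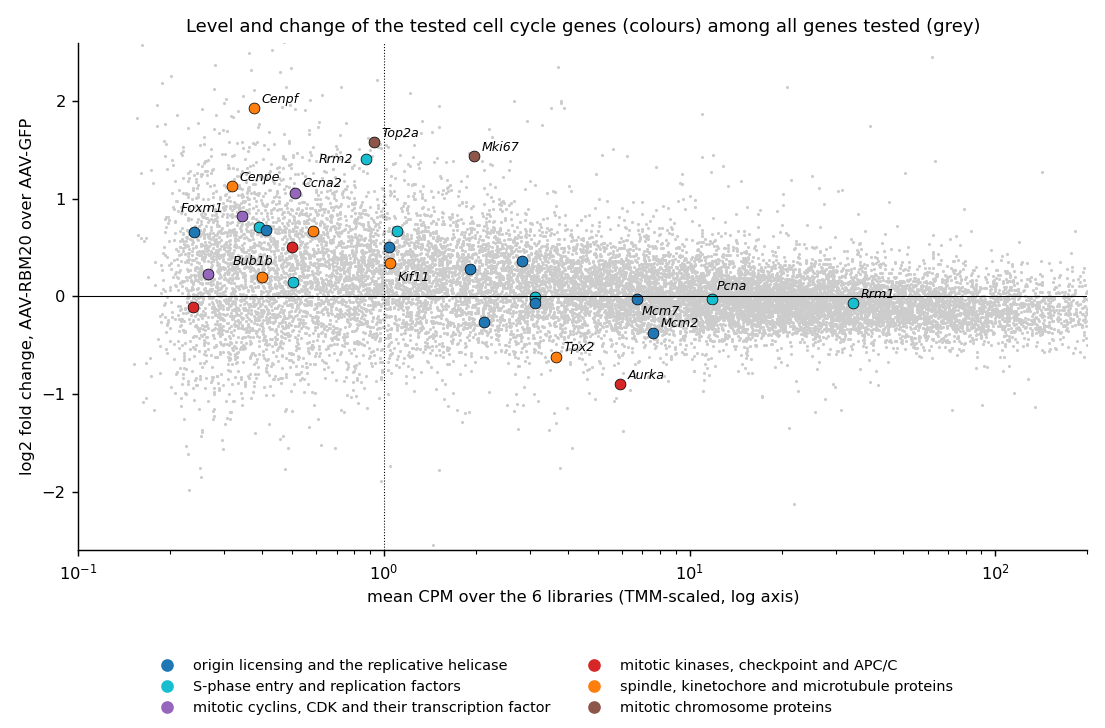
Mean CPM over the 6 libraries (log axis) against log2 fold change for the 30 tested members, coloured by role, and for all tested genes in grey; the dotted line marks 1 CPM and the grey points are cut at the axis limits. To the left of 1 CPM 14 of 15 members lie above 0, after a filter that favoured members higher in AAV-RBM20, and to the right 6 of 15 do.

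The libraries differed in how often they held the highest value of a member. AAV-RBM20 replicate 3 held the highest value of 13 of the 30 tested members, beside 16.5% of all genes tested. AAV-RBM20 replicate 2 held 7, beside 11.6% of genes, and AAV-GFP replicate 3 held 6, beside 32.6%. Group ranges did not overlap for 8 tested members that were higher in every AAV-RBM20 library (Cdt1, Rrm2, Tyms, Foxm1, Bub1b, Kif20a, Cenpf and Top2a), beside 7.71% of all genes tested, and for 2 that were lower in every one (Mcm2 and Aurka), beside 9.04%. Within pairs of libraries with the same number, 15 of the 30 were higher in AAV-RBM20 in all 3 pairs and 3 were lower in all 3, beside 22.2% and 23.0% of genes. These pairs rest on the numbers in the titles. The 30 include Cenpf, which could pass the filter only by being higher in AAV-RBM20. Cdc6, Uhrf1, Cenpe and Foxm1 passed more readily for the same reason. The shares of all genes are not matched for level, so these counts are a description and support nothing on their own.

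**Figure D2:**
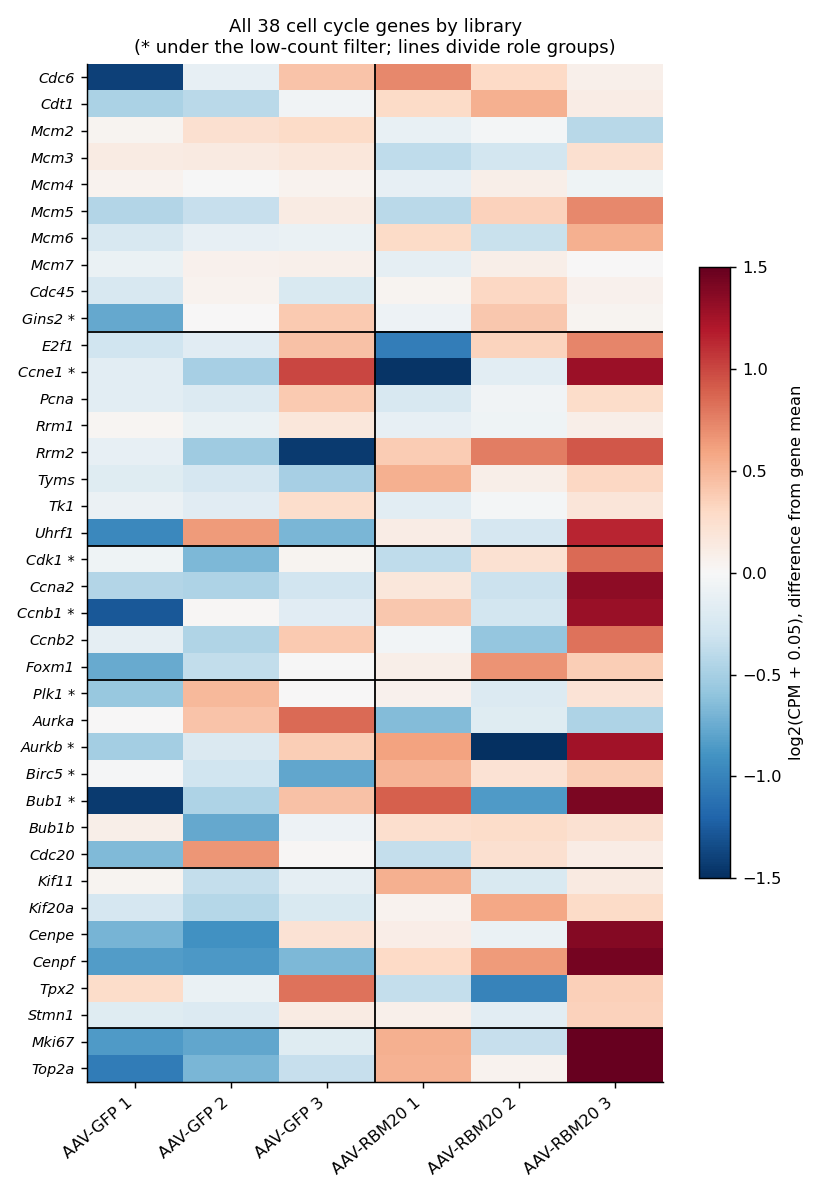
All 38 members (rows, in role groups divided by lines) in the 6 libraries (columns), as log2(CPM + 0.05) minus the mean of the gene, with colours cut at 1.5 either way and asterisks on the 8 members under the low-count filter. AAV-RBM20 replicate 3 holds 13 of the 30 highest values of tested members, with Mki67, Top2a, Cenpf and Ccna2 among the darkest, while Aurka and Mcm2 are blue there.

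Promoters were read from RefSeq windows (GRCm38.p6) of 250 bases before to 50 after the transcription start, which covered 30 of the 38 members. They were searched on both strands for exact letters of 3 kinds of element known in cell cycle genes: the E2F site (TTTCCCGC, TTTGGCGC, TTTCGCGC or TTTGCCGC), the cell cycle genes homology region or CHR (TTTGAA or TTCGAA), to which MuvB complexes bind, and the CCAAT box (CCAAT), to which NF-Y binds. The 5 printed here show some of the combinations of letters, and Mki67, Top2a and Aurka are members on which the results turn. Windows with CCAAT letters only, E2F letters only or no match were not printed. Mcm5, Cdk1 and Mki67 were chosen for their roles, and Top2a and Aurka after their values had been seen. Each runs 5′ to 3′ on the strand of its gene, with matched letters in capitals: Mcm5 at chr8:75109259-75109558 (plus strand), Cdk1 at chr10:69352863-69353162 (minus), Mki67 at chr7:135716330-135716629 (minus), Top2a at chr11:99024140-99024439 (minus) and Aurka at chr2:172370521-172370820 (minus).
Mcm5: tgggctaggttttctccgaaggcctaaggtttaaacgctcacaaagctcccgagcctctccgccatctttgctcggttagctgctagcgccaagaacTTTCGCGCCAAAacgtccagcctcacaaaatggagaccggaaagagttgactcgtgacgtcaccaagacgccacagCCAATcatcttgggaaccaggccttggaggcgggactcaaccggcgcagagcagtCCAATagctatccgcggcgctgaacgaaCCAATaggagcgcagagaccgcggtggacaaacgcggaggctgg
Cdk1: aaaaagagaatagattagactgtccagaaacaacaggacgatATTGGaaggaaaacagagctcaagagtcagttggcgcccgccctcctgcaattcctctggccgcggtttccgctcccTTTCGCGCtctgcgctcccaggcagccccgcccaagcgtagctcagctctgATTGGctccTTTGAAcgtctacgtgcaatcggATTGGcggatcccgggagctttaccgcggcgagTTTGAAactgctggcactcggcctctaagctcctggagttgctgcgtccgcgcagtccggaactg
Mki67: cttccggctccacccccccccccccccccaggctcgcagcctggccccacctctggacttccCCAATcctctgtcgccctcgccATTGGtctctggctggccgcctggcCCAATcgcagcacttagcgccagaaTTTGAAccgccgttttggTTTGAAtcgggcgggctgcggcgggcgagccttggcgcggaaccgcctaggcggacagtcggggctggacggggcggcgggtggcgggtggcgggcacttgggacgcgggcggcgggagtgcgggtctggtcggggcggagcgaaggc
Top2a: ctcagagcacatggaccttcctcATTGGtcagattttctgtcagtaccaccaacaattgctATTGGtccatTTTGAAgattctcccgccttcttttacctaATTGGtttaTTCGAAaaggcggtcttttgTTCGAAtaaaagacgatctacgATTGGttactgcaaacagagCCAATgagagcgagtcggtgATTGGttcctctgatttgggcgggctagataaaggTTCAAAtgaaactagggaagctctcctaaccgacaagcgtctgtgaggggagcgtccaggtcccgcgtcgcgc
Aurka: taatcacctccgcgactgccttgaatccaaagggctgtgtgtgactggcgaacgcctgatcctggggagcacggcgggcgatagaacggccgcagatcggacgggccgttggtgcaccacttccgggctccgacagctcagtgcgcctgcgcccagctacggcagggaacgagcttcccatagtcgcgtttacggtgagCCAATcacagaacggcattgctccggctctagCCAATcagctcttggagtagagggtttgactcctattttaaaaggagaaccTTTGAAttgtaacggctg
In Mcm5, a helicase subunit gene, the longest run of capitals holds 2 overlapping E2F matches on opposite strands, and there is no CHR match. Cdk1, which encodes the main mitotic kinase, held all 3 kinds. Mki67, Top2a and Aurka held CHR and CCAAT letters and no E2F match.

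The promoters divided by role. Among the 16 licensing and S-phase members with a window, 7 held an E2F match, 10 a CCAAT match and 3 a CHR match. Among the 14 mitotic members, 1 held an E2F match, 13 a CCAAT match and 11 a CHR match. Over all 27025 genes with a window, 2.61% held the E2F letters, 41.1% the CCAAT letters and 21.7% the CHR letters. The short CHR and CCAAT letters are thus frequent in any window of this length, and a match is a description of the sequence only. The windows of Mki67, Top2a and Aurka all held the same 2 kinds of match. In these libraries Mki67 and Top2a had positive log2 fold changes and Aurka a negative one. Top2a and Aurka were chosen with their values seen, and a relation between match and direction was not tested.

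Origin licensing and the replicative helicase had 9 of 10 members tested, of which 0 passed the adjusted threshold, 5 had a positive and 4 a negative log2 fold change, with a median of 0.28. The abundant subunits of the MCM2 to MCM7 ring were close in level between the groups or lower in AAV-RBM20. Mcm2 (ENSMUSG00000002870, GRCm38 chr6:88883474-88898780) was at 7.70, 8.86 and 9.16 CPM in AAV-GFP replicates 1, 2 and 3 and at 6.93, 7.36 and 5.601 CPM in AAV-RBM20 replicates 1, 2 and 3. Every AAV-RBM20 library was below every AAV-GFP library, with a log2 fold change of -0.37 ± 0.16 (SE) and an adjusted p of 0.633 by edgeR. Leaving out replicate 3 of both groups gave -0.21. Mcm7 (ENSMUSG00000029730, chr5:138164583-138172422), another subunit of the ring, was at 6.22, 6.996 and 7.09 CPM in AAV-GFP and 6.09, 7.14 and 6.71 CPM in AAV-RBM20. The groups overlapped, the log2 fold change was -0.027 ± 0.15 (SE), and its sign turned with upper quartile scaling. Mcm7 shares exon sequence with Mir25, Mir93, Ap4m1 and Cops6, so its count is uncertain.

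The other licensing members were scarcer and more mixed. Mcm3 and Mcm4 had log2 fold changes of -0.26 and -0.064, and Mcm5 and Mcm6 of 0.51 and 0.37. Cdt1, the licensing factor that loads MCM rings, had 11 to 20 counts in the AAV-GFP libraries and 21 to 27 in the others, a log2 fold change of 0.68 (adjusted p = 0.657 by edgeR), and its groups just failed to overlap. Cdc6 had a log2 fold change of 0.66 from 2 to 21 counts per library, and Cdc45, a helicase cofactor, of 0.28. The ring subunits therefore did not share a direction.

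The S-phase entry and replication factors had 7 of 8 members tested, with 0 past the adjusted threshold, 4 positive and 3 negative. The abundant members differed little. Pcna (ENSMUSG00000027342, chr2:132249162-132253314), which encodes the sliding clamp of DNA polymerases, was at 10.4, 10.1 and 15.3 CPM in AAV-GFP and 9.81, 11.2 and 14.04 CPM in AAV-RBM20, with the libraries numbered 3 highest in both groups. Rrm1 (ENSMUSG00000030978, chr7:102441695-102469771), the large subunit of ribonucleotide reductase, was at 34.8, 31.8 and 38.5 CPM in AAV-GFP and 31.2, 32.7 and 36.3 CPM in AAV-RBM20. Their log2 fold changes were -0.028 ± 0.21 and -0.070 ± 0.13 (SE), and Tk1, thymidine kinase, had -0.0072.

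Rrm2 (ENSMUSG00000020649, chr12:24708241-24714146) encodes the small subunit of the same reductase, which accumulates in S phase. It was at 0.689, 0.503 and 0.247 CPM in AAV-GFP and 0.990, 1.32 and 1.48 CPM in AAV-RBM20, from 13 to 28 and 53 to 72 counts. Every AAV-RBM20 library was above every AAV-GFP library, the fold of means was 2.63 and the log2 fold change 1.41 ± 0.41 (SE), with an unadjusted p of 0.00943 and an adjusted p of 0.618 by edgeR. The 2 subunits of one enzyme thus stood apart, with Rrm1 near a log2 fold change of 0 and Rrm2 higher in each AAV-RBM20 library, although this difference between genes was not tested. Tyms, thymidylate synthase, was at 0.741 to 0.935 CPM in AAV-GFP and 1.14 to 1.58 CPM in AAV-RBM20, a log2 fold change of 0.67 (unadjusted p = 0.0404, adjusted p = 0.618 by edgeR). A pseudogene of Tyms is annotated and could share its reads. E2f1 and Uhrf1, which maintains DNA methylation behind the fork, had log2 fold changes of 0.15 and 0.71 with overlapping groups.

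The mitotic cyclins, CDK and their transcription factor had 3 of 5 members tested, all positive and none past the adjusted threshold. Ccna2 (ENSMUSG00000027715, chr3:36564865-36572150), cyclin A2, was at 0.320, 0.311 and 0.361 CPM in AAV-GFP and 0.513, 0.348 and 1.21 CPM in AAV-RBM20. AAV-RBM20 replicate 3 held 59 counts against 13 to 28 in the other libraries, and leaving it out lowered the log2 fold change from 1.06 to 0.39. Ccna2 overlaps exons of Exosc9 on the opposite strand, and Foxm1 overlaps those of Gm44596 and Tex52 on the same strand. Foxm1 (ENSMUSG00000001517, chr6:128362967-128376146), the transcription factor for mitotic genes, was at 0.172, 0.240 and 0.323 CPM in AAV-GFP and 0.348, 0.547 and 0.432 CPM in AAV-RBM20, with ranges that did not overlap and a log2 fold change of 0.82 ± 0.42 (SE, adjusted p = 0.654 by edgeR).

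**Figure D3:**
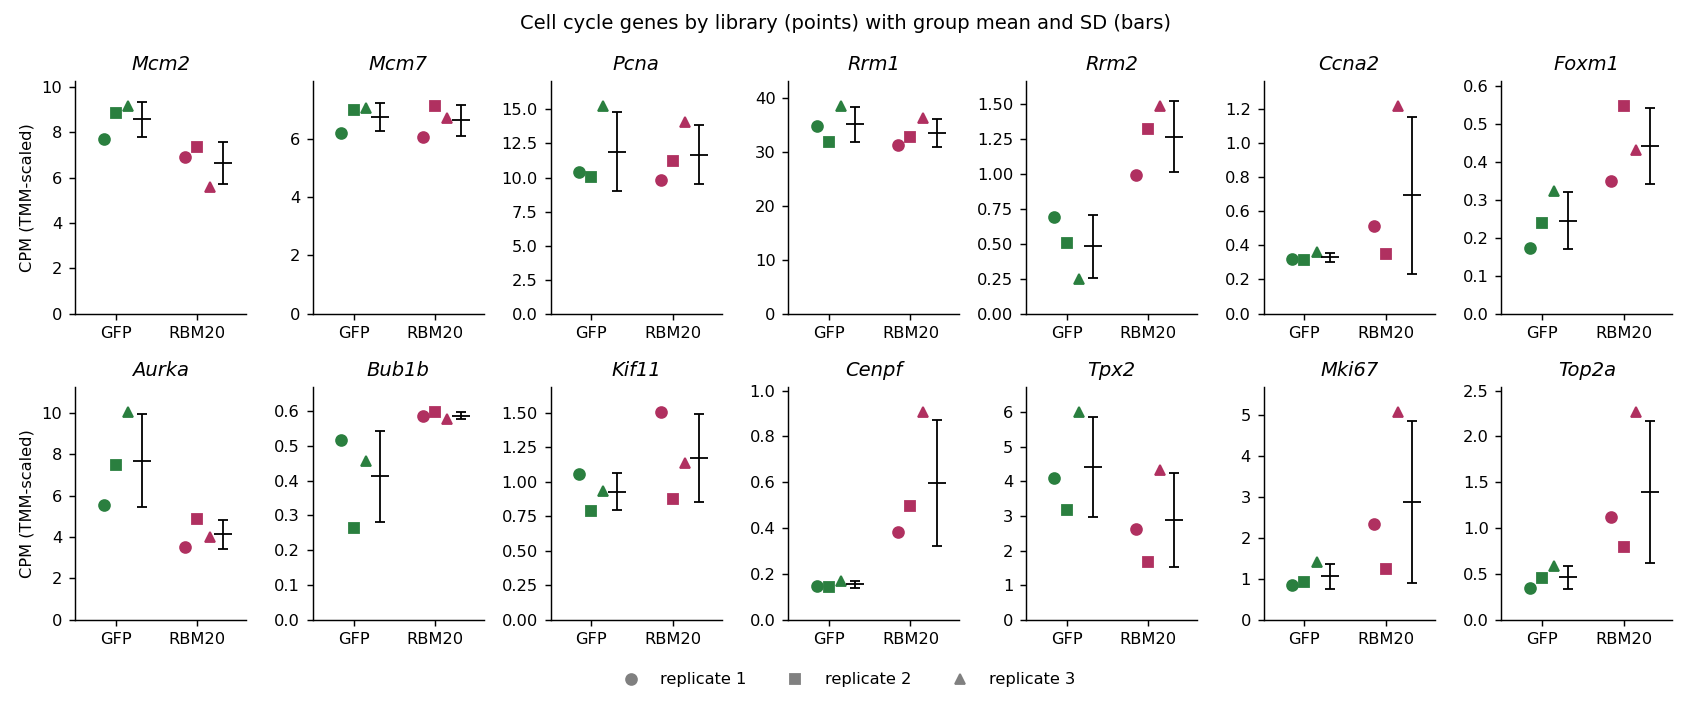
TMM-scaled CPM of 14 members in each library (green AAV-GFP, red AAV-RBM20, symbols for replicate number), with the group mean and SD of 3 libraries as the bar beside the points and each axis from 0. Mcm2 and Aurka lie lower in every AAV-RBM20 library, Rrm2, Foxm1, Bub1b, Cenpf and Top2a lie higher in every one, and Mcm7, Pcna, Rrm1, Ccna2, Kif11, Tpx2 and Mki67 overlap.

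Mitotic kinases, checkpoint and anaphase-promoting complex members were mostly too scarce to test, with 3 of 7 past the filter. Aurka (ENSMUSG00000027496, chr2:172356190-172370535), Aurora kinase A of centrosomes and spindle poles, was the most abundant of them and the clearest member that was lower. It was at 5.56, 7.50 and 10.1 CPM in AAV-GFP replicates 1, 2 and 3 and at 3.52, 4.88 and 4.02 CPM in AAV-RBM20 replicates 1, 2 and 3, from 226 to 529 and 192 to 196 counts. All AAV-RBM20 libraries lay below all AAV-GFP libraries, and the ratio of means was 0.537. Its log2 fold change of -0.90 ± 0.24 (SE) had an unadjusted p of 0.00613 and an adjusted p of 0.618 by edgeR, 0.0959 with the replicate block, and 0.00976 by DESeq2 with the block. Over the alternatives its log2 fold change stayed negative, from -1.09 to -0.64, the latter without replicate 3 of both groups.

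Bub1b (ENSMUSG00000040084, chr2:118598211-118641591), the BUBR1 checkpoint kinase, was at 0.517, 0.264 and 0.456 CPM in AAV-GFP and 0.587, 0.597 and 0.577 CPM in AAV-RBM20. Its ranges did not overlap, but the log2 fold change of 0.50 ± 0.37 (SE) had an adjusted p of 0.705 by edgeR and fell to 0.27 without AAV-GFP replicate 2. Cdc20, an activator of the anaphase-promoting complex, had 5 to 16 counts per library and a log2 fold change of -0.11.

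Spindle, kinetochore and microtubule members were all tested, with 5 of 6 positive and none past the adjusted threshold. Cenpf (ENSMUSG00000026605, chr1:189640606-189688086), a large kinetochore protein made late in the cycle, was at 0.148, 0.144 and 0.171 CPM in AAV-GFP and 0.385, 0.498 and 0.906 CPM in AAV-RBM20, from 6 to 9 and 20 to 44 counts. It had the largest log2 fold change among the tested members, 1.93 ± 0.47 (SE), with an unadjusted p of 0.00353 and an adjusted p of 0.618 by edgeR. Since it met the count minimum in AAV-RBM20 only, it could enter the test only by being higher there. Cenpe, a kinetochore motor, had a log2 fold change of 1.13 with 5 to 17 and 10 to 38 counts, and its ranges overlapped.

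Kif11 (ENSMUSG00000012443, chr19:37376403-37421859), the motor that pushes spindle poles apart, was at 1.06, 0.791 and 0.931 CPM in AAV-GFP and 1.503, 0.871 and 1.13 CPM in AAV-RBM20, with overlapping groups and a log2 fold change of 0.34 ± 0.31 (SE). Kif20a, a motor of cytokinesis, was at 0.407 to 0.475 and 0.587 to 0.871 CPM, with no overlap and a log2 fold change of 0.67. Stmn1, a destabiliser of microtubules, had 0.20.

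Tpx2 (ENSMUSG00000027469, chr2:152847964-152895321), the spindle protein that binds and activates Aurora kinase A, was the member of its group with a negative log2 fold change. It was at 4.11, 3.16 and 6.00 CPM in AAV-GFP and 2.62, 1.67 and 4.34 CPM in AAV-RBM20, so the groups overlapped but the AAV-RBM20 library was the lower in each of the 3 pairs. Tpx2 had a log2 fold change of -0.62 ± 0.37 (SE, unadjusted p = 0.137, adjusted p = 0.661 by edgeR), and with the replicate block the unadjusted p was 0.00553 and the adjusted p 0.140. Leaving out AAV-GFP replicate 3 brought it to -0.33 and leaving out AAV-RBM20 replicate 3 to -1.03.

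The mitotic chromosome proteins were the pair with the highest group median, 1.51. Mki67 (ENSMUSG00000031004, chr7:135689784-135716361) encodes Ki-67, the coat of mitotic chromosomes used as a marker of proliferation. It was at 0.861, 0.910 and 1.41 CPM in AAV-GFP and 2.33, 1.24 and 5.07 CPM in AAV-RBM20, from 35, 38 and 74 and from 127, 50 and 246 counts. AAV-RBM20 replicate 2 lay below AAV-GFP replicate 3, so the groups overlapped, while each AAV-RBM20 library was above the AAV-GFP library of its number, by 2.70, 1.37 and 3.60 times. Its log2 fold change of 1.44 ± 0.50 (SE) had an unadjusted p of 0.0208 and an adjusted p of 0.618 by edgeR, 0.123 with the replicate block and 0.0360 by DESeq2 with the block. Without AAV-RBM20 replicate 3 it was 0.76, with an unadjusted p of 0.0981 by edgeR.

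Top2a (ENSMUSG00000020914, chr11:98992943-99024189), the topoisomerase that untangles replicated DNA, was at 0.344, 0.455 and 0.589 CPM in AAV-GFP and 1.118, 0.796 and 2.27 CPM in AAV-RBM20. The groups did not overlap, and the fold of means was 3.01. Its log2 fold change of 1.58 ± 0.46 (SE) had an unadjusted p of 0.00857 and an adjusted p of 0.618 by edgeR, and 0.115 with the replicate block. It fell to 1.05 without AAV-RBM20 replicate 3. Top2a overlaps exons of Gm23451 on the same strand.

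**Figure D4:**
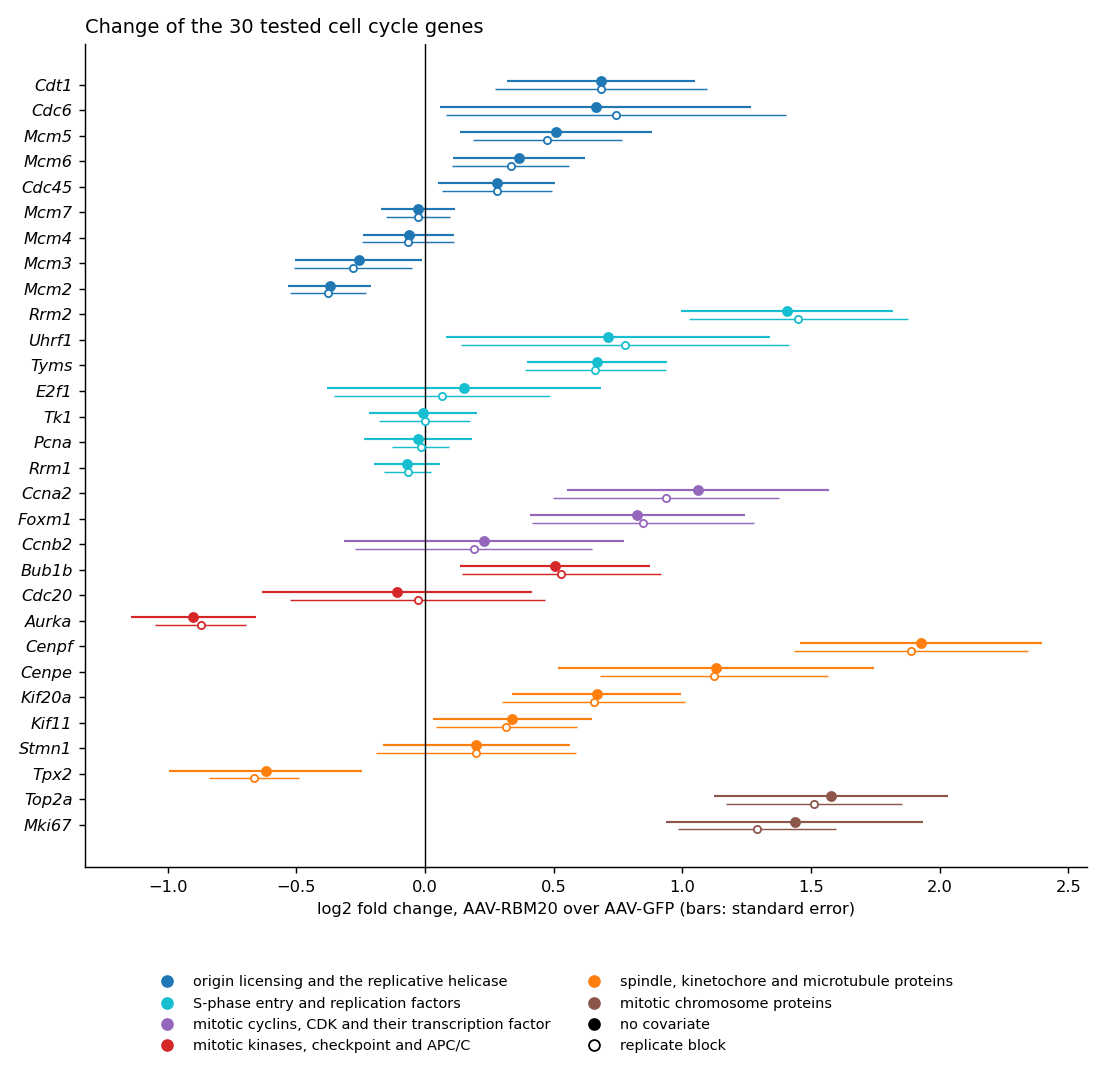
Log2 fold change (AAV-RBM20 over AAV-GFP) of the 30 tested members by role, with the edgeR standard error as bars; filled points had no covariate and open points the replicate block. Cenpf is farthest to the right and Aurka farthest to the left, and filled and open points of a gene lie close together.

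The 8 members under the filter were Gins2, a helicase cofactor, Ccne1 and Ccnb1, the cyclins E1 and B1, Cdk1, the kinases Plk1, Aurkb and Bub1, and Birc5, survivin. Their summed counts were 23, 35 and 61 with AAV-GFP against 60, 34 and 98 with AAV-RBM20, with at most 18 counts for one gene in one library. Of the 8, 5 had their highest count in AAV-RBM20 replicate 3. Ccnb1 had counts of 0, 3 and 3 with AAV-GFP and of 6, 2 and 12 with AAV-RBM20, and Bub1 had 0, 2 and 7 and then 11, 1 and 15. A count of 0 allows up to 3 counts, or 0.0553 to 0.0725 CPM at these depths, which covers counting error only.

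Beyond the 38 members, 118 other cell cycle genes in 4 lists were followed, and 91 were tested. None passed the adjusted threshold with or without the replicate block. Their median log2 fold change was 0.013, and 5 were higher and 5 lower at an unadjusted p under 0.05, beside the 4.08% and 3.82% of all genes. By list, 1 higher and 1 lower were among 33 other replication genes, 2 and 1 among 27 other mitosis genes, 1 and 3 among 22 G1 cyclins, CDKs, E2F and MuvB factors, and 1 and 0 among 9 pocket proteins and CDK inhibitors. Cdk6, a kinase of G1, was at 4.16, 4.10 and 1.99 CPM in AAV-GFP and 6.97, 5.90 and 6.32 CPM in AAV-RBM20. It had a log2 fold change of 0.91 ± 0.28 (SE, adjusted p = 0.618 by edgeR, 0.123 with the block, 0.0205 by DESeq2 with the block).

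Over the 27 other mitosis genes tested, the median log2 fold change was 0.11. Spc25 and Kif23 were named for their small unadjusted p. Spc25, a kinetochore subunit, was at 0.0984 to 0.190 CPM in AAV-GFP and 0.293 to 0.432 CPM in AAV-RBM20, and Kif23, a motor of cytokinesis, at 0.172 to 0.359 and 0.473 to 1.05 CPM. Their log2 fold changes were 1.35 and 1.42, with an adjusted p of 0.618 each by edgeR. E2f4, the repressor E2F of resting cells, was lower, at 24.1 to 29.96 CPM in AAV-GFP and 18.9 to 21.1 CPM in AAV-RBM20, a log2 fold change of -0.39 (adjusted p = 0.618 by edgeR). E2f6, a repressor without the usual activation domain, was at 149 to 183 CPM in AAV-GFP and 114 to 133 CPM in AAV-RBM20, and was named after DESeq2 with the block called it lower (adjusted p = 0.0304).

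In whole muscle, more dividing cells and more of these transcripts per cell cannot be told apart, nor can fewer cells of a type and less RNA per cell. Marker lists of other cells were therefore summed in the same libraries. The 15 macrophage and monocyte markers summed to 44.5, 41.7 and 141 CPM in AAV-GFP and 101, 89.6 and 224 CPM in AAV-RBM20. Of 14 tested markers, 13 were positive, 0 were called in the planned test and 3 with the edgeR block, beside 0.145% of genes. DESeq2 with the block called 7 of the 13 markers to which it gave an adjusted p, beside 3.28% of genes. The macrophage and monocyte sum was higher in AAV-RBM20 in each pair and highest in AAV-RBM20 replicate 3. The same held for Mki67 and for the T and NK cell and fibro-adipogenic progenitor sums. In AAV-GFP replicate 3 the macrophage sum lay above AAV-RBM20 replicates 1 and 2. Mki67 in that library lay above AAV-RBM20 replicate 2 and below AAV-RBM20 replicate 1. The 11 T and NK cell markers summed to 0.517, 1.03 and 1.48 CPM and then 1.36, 1.22 and 7.99 CPM, and 6 of them, Cd3d, Cd3g, Cd4, Cd8a, Cd8b1 and Gzmb, were at 0 in an AAV-GFP library. The 9 fibro-adipogenic progenitor markers summed to 583, 546 and 1109 CPM and then 1067, 908 and 1169 CPM, with all 9 positive. The part of these cells in the values of the members was not tested.

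The 10 muscle stem cell and myoblast markers summed to 74.8 to 76.7 CPM in AAV-GFP and 63.4 to 84.1 CPM in AAV-RBM20, with 6 of 8 tested markers positive, 0 called in the planned test or with the edgeR block, and Mymx at 0 in 5 of 6 libraries. Group ranges did not overlap for 5 of the 8, with 3 higher and 2 lower in AAV-RBM20, beside 7.71% and 9.04% of all genes tested. Myod1, a myogenic transcription factor, was at 39.1 to 40.5 CPM in AAV-GFP and 31.0 to 32.9 CPM in AAV-RBM20, and Cdh15, the adhesion protein M-cadherin, at 20.4 to 22.9 and 12.5 to 17.3 CPM, both lower. Myod1 and Cdh15 together made up most of the summed level in every library, so the sum says little about the scarcer markers. Myog, Myh3 and Myh8, genes of differentiating and young fibres, were higher in every AAV-RBM20 library. The adjusted p of these 5 was 0.617 or 0.618 by edgeR. DESeq2 with the block called Cdh15 (adjusted p = 0.0352), Myh3 and Myh8, beside 3.28% of the genes to which it gave an adjusted p. Pax7, which defines the stem cells, was at 4.58, 3.91 and 2.98 CPM in AAV-GFP and 6.49, 4.55 and 3.44 CPM in AAV-RBM20. The groups overlapped, and Pax7 was higher in AAV-RBM20 in all 3 pairs (unadjusted p = 0.248 by edgeR, 0.0819 with the block). The 9 muscle fibre markers summed to 121590 to 130875 CPM in AAV-GFP and 113077, 122453 and 79370 CPM in AAV-RBM20, lowest in AAV-RBM20 replicate 3. All samples thus held skeletal muscle, as labelled. The part of fibre content in the values of the members was not tested.

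**Figure D5:**
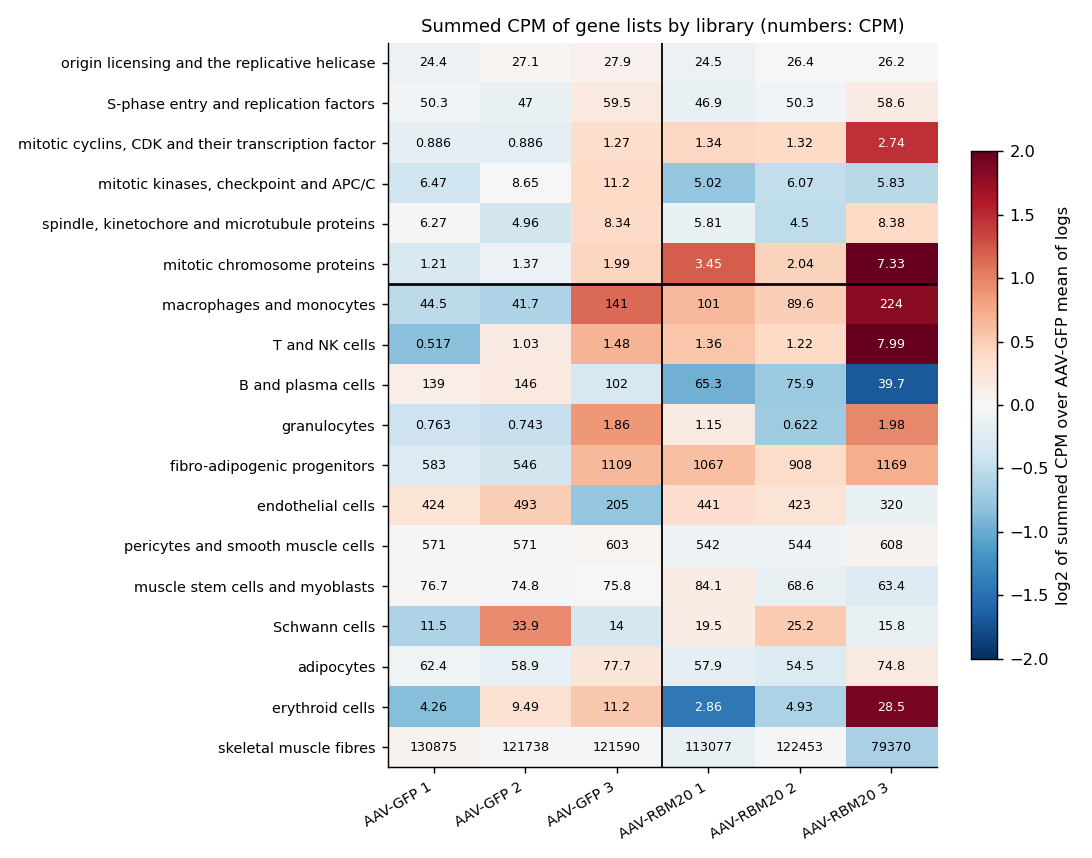
Summed TMM-scaled CPM (printed numbers) of the 6 role groups of members, above the thick line, and of 12 cell type marker lists, below it, in the 6 libraries; colours give the log2 difference from the AAV-GFP mean of logs and are cut at 2 either way. AAV-RBM20 replicate 3 is the highest library for mitotic chromosome proteins (7.33 CPM), macrophages (224 CPM) and T and NK cells (7.99 CPM) and the lowest for muscle fibres (79370 CPM).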

How the data were processed

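RNA was measured by stranded, ribosomal RNA-depleted RNA-seq of pulverised TA muscle. Per the submitters' processing notes, the authors aligned with HISAT2 to mm10, and HTSeq gave counts per gene. The deposited counts are raw whole numbers per Ensembl gene, and the tool versions, annotation release and strand setting are not given in the sources used here. Counts are uncertain for the 11 members whose exons overlap another gene and for those with annotated pseudogenes (Ccnb1, Ccnb2, Pcna and Tyms). Of the 11, Mcm7, Foxm1, Stmn1 and Top2a overlap a gene on the same strand, which the strand setting would not settle. A second deposited table, of counts the authors divided by DESeq2 size factors, was not used. GENCODE M21 (GRCm38, the same build) gave symbols and positions, and 260 of 55401 identifiers had no symbol. No replicate repeated another, with a chi-square per degree of freedom of 15.1 to 545 over genes with at least 50 counts in a pair.

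Groups came from the labels, and replicate numbers from the titles. Counts were tested with edgeR 4.0.16 in R 4.3.3 (filterByExpr, TMM, robust quasi-likelihood fit, no covariate), with Benjamini-Hochberg adjustment over the 17222 genes tested and a threshold of 0.05. The SE is the log2 fold change over the root of F. The fits were tested on simulated data. Alternatives were other scalings and filters, the replicate block, DESeq2 1.42.0, and leaving out libraries. Deviations from the group means correlated across genes at 0.42, 0.20 and 0.48 between libraries numbered 1, 2 and 3, each above 0.1, and same-numbered samples were treated as pairs. Across numbers, the second AAV-GFP sample and the first of AAV-RBM20 correlated at 0.22, and the converse pairing gave 0.13, both also above 0.1. The values thus set number 3 apart from the others but do not match 1 with 1 or 2 with 2. The pairing of 1 and 2, in the replicate block and in the counts over pairs, rests on the titles. The descriptions give the AAV-RBM20 samples other numbers. Lane labels of the study's blots show that some mice had one vector in each leg, but do not tie legs to the sequenced samples. Members and lists were chosen with earlier results of these data known. Named in full were the 2 most abundant members of each role group, any member past the adjusted threshold in edgeR, and the 5 with the smallest unadjusted p, and from the other cell cycle genes the 4 with the smallest unadjusted p. A further 12 lists of cell type markers were summed.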

Additional observations from a re-analysis of the deposited data

How the results depend on the processing

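The count of members past an adjusted p of 0.05 was 0 in the planned edgeR fit and in all alternatives except DESeq2 with the replicate block, which called 2 (Aurka at -0.89 and Mki67 at 1.26 on the log2 scale). The count over all genes, 0 in the planned fit, was 8 without a filter, 25 with the replicate block, 72 by DESeq2, 503 by DESeq2 with the block and 690 without replicate 3 of both groups, and 0 without any single library. For the other cell cycle genes it was 2 by DESeq2 with the block and 3 without replicate 3 of both groups (Gmnn, Cdk6 and E2f6). Members at an unadjusted p under 0.05, 6 in the planned fit, numbered 3 of 14 with a minimum of 1 CPM in 3 libraries, 9 with the block, and 4 to 7 without single libraries. The other cell cycle genes numbered 10, then 21 with the block, 19 without replicate 3 of both groups and 4 to 12 without single libraries. The median log2 fold change of the members, 0.35, was 0.00087 over the 14 members that passed the 1 CPM minimum, which removes the scarce members, and 0.20 to 0.48 without single libraries. Near 0, signs turned for Mcm7 (0.017 with upper quartile scaling, 0.0040 without replicate 3 of both groups, -0.087 to 0.038 without single libraries), Pcna (0.022 with upper quartile scaling, 0.0022 with the 1 CPM minimum, 0.044 without replicate 3 of both groups, -0.17 to 0.19 without single libraries) and Rrm1 (-0.14 to 0.00082 without single libraries). The edgeR block changed no call on a named member or other cell cycle gene, but did so for Rbm20 and Ighm. It also did so for Ptprc, Ccr2 and Ctss of the macrophage and monocyte list. The log2 ratio of summed levels was -0.016, 0.014 without Rrm1 and 0.12 on raw library sizes, within the spread of the libraries. The cause of these changes was not tested. The 23 members under 1 CPM rest on few counts per library.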

Other observations

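The 7 B and plasma cell markers summed to 102 to 146 CPM in AAV-GFP and 39.7 to 75.9 CPM in AAV-RBM20, with no overlap and the lowest value in AAV-RBM20 replicate 3, where the T and NK cell sum was highest. Nearly all of this sum was Ighm, at 138 CPM in AAV-GFP replicate 1 and 33.8 CPM in AAV-RBM20 replicate 3, which edgeR and DESeq2 called lower with the replicate block but not edgeR without it. The direction of the list depended on the low-count filter. Of its 4 tested markers, 1 had a positive and 3 a negative log2 fold change. The median of these 4 was -0.82 by edgeR and -0.35 with the block. Without the filter, 4 of the 7 were positive, with a median of 0.13. No marker list was compared with the members by a test. The embryonic and perinatal myosin genes Myh3 and Myh8, marks of young or regenerating fibres, both had a log2 fold change of 2.00 and were called by DESeq2 with the block (adjusted p = 0.00109 and 3.61e-07), not by edgeR. Myh3 was at 1.13, 1.44 and 0.646 CPM in AAV-GFP and 8.38, 2.54 and 1.87 CPM in AAV-RBM20, highest in AAV-RBM20 replicate 1.

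The remaining marker sums overlapped between the groups. Endothelial markers were at 205 to 493 CPM in AAV-GFP and 320 to 441 CPM in AAV-RBM20, pericytes and smooth muscle cells at 571 to 603 and 542 to 608 CPM, Schwann cells at 11.5 to 33.9 and 15.8 to 25.2 CPM, adipocytes at 58.9 to 77.7 and 54.5 to 74.8 CPM, granulocytes at 0.743 to 1.86 and 0.622 to 1.98 CPM, and erythroid cells at 4.26 to 11.2 and 2.86 to 28.5 CPM.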
